A study of Mus musculus with 30 samples.

Results

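The genes described here are 9 members and readouts of bone morphogenetic protein (BMP) signalling: the ligand gene Bmp4, the inhibitor genes Smad6 and Bambi, the helix-loop-helix genes Id1, Id2, Id3 and Id4, and the homeobox genes Msx1 and Msx2. They were found in the deposited count table by matching gene identifiers to these symbols, and all 9 of 9 were present among 55421 genes. RNA came from mouse E14 embryonic stem cells, a pluripotent XY line of 129P2/Ola background, cultured on gelatin without feeder cells in serum, LIF, PD0325901 (a MEK inhibitor) and CHIR-99021 (a GSK3 inhibitor). The 30 libraries form 10 groups of 3, made of 5 engineered lines sampled untreated or after 24 h of treatment. Every line carried Tir1, the plant protein through which auxin destroys proteins fused to an auxin-inducible degron (AID). The TIR1 line had no further fusion, the PDS5AB line had PDS5A-AID and PDS5B-AID, and the WAPL line had WAPL-AID. All 3 of these lines were treated with 500 µM auxin. The PDS5AB-NIPBL line carried PDS5A-AID and PDS5B-AID, and the WAPL-NIPBL line carried WAPL-AID, and both also had NIPBL-FKBP, which dTAG-13 destroys, and RAD21-Halo. These combined lines received 500 µM auxin together with 500 nM dTAG-13. Cohesin, a ring-shaped complex, folds chromosomes into loops, and each targeted protein regulates it: NIPBL drives extrusion, WAPL releases cohesin from DNA, and PDS5A and PDS5B take part in both pausing and release. Each genotype is represented by 1 cell line, and no group received dTAG-13 alone.

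BMP ligands bind paired type I and type II serine/threonine kinase receptors, which phosphorylate SMAD1, SMAD5 and SMAD9. With SMAD4 these enter the nucleus and activate target genes, among which the Id genes and the inhibitory Smad genes are the classical early ones. In mouse embryonic stem cells BMP signalling acts with LIF to hold back neural differentiation, and Id proteins are its known mediators there.

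Total counts ran from 19632704 to 45539021 fragments per library. The libraries of untreated TIR1 cells and of both PDS5AB groups carry numbers from 1 to 21, and the others carry numbers from 25 to 45. Thus the TIR1 auxin effect, and each comparison of WAPL or a combined line with untreated TIR1, crosses that gap in library numbers. So does any comparison of PDS5AB levels with those of WAPL, a combined line or treated TIR1. The gap and the group cannot be told apart there. The other treatment effects do not cross it. The labels do not state whether the 3 libraries of a group came from separate cultures, so p-values measure only the spread between these libraries. Degrons act on protein, so transcripts of the tagged genes do not check depletion. Pds5a averaged 83.4 CPM in untreated PDS5AB cells and 224 CPM in untreated TIR1 cells, Wapl 176 CPM in untreated WAPL cells and 291 CPM in untreated TIR1 cells, and Nipbl 70.0 CPM in untreated WAPL-NIPBL cells and 134 CPM in untreated TIR1 cells. Pds5a was also lower in untreated PDS5AB-NIPBL cells, at 99.5 CPM. The other fused genes were not called lower before treatment except Rad21: Wapl averaged 298 CPM in WAPL-NIPBL, Pds5b 113 CPM in PDS5AB against 110.1 CPM in TIR1, and Nipbl 121 CPM in PDS5AB-NIPBL, none of them called, while Pds5b was called higher in PDS5AB-NIPBL (140.03 CPM). Rad21, fused to Halo in the combined lines, averaged 328 CPM in untreated PDS5AB-NIPBL, 322 CPM in WAPL-NIPBL and 421 CPM in TIR1 cells, and was called lower in both. It was also called lower in untreated PDS5AB cells, which lack that fusion (372 CPM, log2 difference -0.18, edgeR adjusted p = 0.017). CPM, the unit of level here, is a gene's count scaled to its library's total after TMM correction. All 10 pluripotent stem cell markers were tested, and none was at 0 in any group.

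Transcripts of cell type markers also differed between treated and untreated cells. Their counts stand beside shares of all tested genes called of 46% in the PDS5AB effect, 32.8% in WAPL, 19.5% in PDS5AB-NIPBL, 8.57% in WAPL-NIPBL and 19.9% in TIR1, and were not tested against them. Summed levels cover all genes of a list, also those not tested, and so 9 trophoblast, 8 neural and 8 fibroblast genes. Of the 10 pluripotency markers, which include Sox2, Klf4 and Zfp42, 10 were lower in the PDS5AB effect and 8 in each of the WAPL, PDS5AB-NIPBL and WAPL-NIPBL effects, whereas in TIR1 2 were higher and 2 lower. Their summed level was 6880 to 7589 CPM in untreated PDS5AB libraries and 4642 to 4992 CPM in treated ones. It went from 6871 to 7133 CPM to 5361 to 5554 CPM in WAPL, from 7253 to 7616 CPM to 6030 to 6417 CPM in PDS5AB-NIPBL, and from 6935 to 7081 CPM to 5754 to 5938 CPM in WAPL-NIPBL. In TIR1 it was 6940 to 7301 CPM untreated and 6769 to 7213 CPM treated. Of 8 primitive endoderm markers, 4 were higher and 1 lower in the PDS5AB effect, 5 and 1 in WAPL, 3 and 0 in each combined line, and 2 and 0 in TIR1. Their summed level went from 232 to 275 CPM to 192 to 211 CPM in WAPL, without overlap, although more of its markers were higher than lower. It was higher without overlap in TIR1 (161 to 171 CPM, then 206 to 215 CPM) and in PDS5AB-NIPBL (239 to 281 CPM, then 284 to 297 CPM). In PDS5AB (136 to 147 CPM, then 138 to 167 CPM) and WAPL-NIPBL (234 to 274 CPM, then 245 to 255 CPM) the sums overlapped. Of 8 tested trophoblast markers, 3 were higher and 2 lower in both PDS5AB and WAPL, 4 and 2 in PDS5AB-NIPBL, 2 and 1 in WAPL-NIPBL, and 3 and 0 in TIR1, and their summed level, untreated and then treated, was 101 to 109 and 151 to 156 CPM in TIR1, 88.0 to 111 and 136 to 164 CPM in PDS5AB, 90.2 to 110 and 48.3 to 57.0 CPM in WAPL, 88.4 to 100.3 and 73.9 to 82.4 CPM in PDS5AB-NIPBL, and 78.1 to 86.1 and 56.1 to 59.7 CPM in WAPL-NIPBL. Mesoderm markers (8 tested) gave 3 higher and 2 lower in both PDS5AB and PDS5AB-NIPBL, 3 and 1 in WAPL, 2 and 1 in WAPL-NIPBL, and 1 and 0 in TIR1, with sums of 21.96 to 49.9 CPM over all libraries. These sums were higher without overlap in WAPL (22.5 to 27.2 CPM, then 30.3 to 41.2 CPM) and WAPL-NIPBL (21.96 to 29.1 CPM, then 31.8 to 41.6 CPM) and overlapped in the other lines. Lhx1 among them was at 0 in untreated TIR1 cells. Neural markers (5 tested) gave 3 higher and 1 lower in PDS5AB, 1 and 1 in WAPL, 2 and 1 in PDS5AB-NIPBL, and 0 and 1 in WAPL-NIPBL and in TIR1, with Olig2 at 0 in 6 of the 10 groups. Neural sums were higher without overlap in PDS5AB (59.6 to 77.8 CPM, then 88.7 to 107 CPM), PDS5AB-NIPBL (63.8 to 88.5 CPM, then 108 to 129 CPM) and WAPL-NIPBL (83.7 to 93.5 CPM, then 98.4 to 109.5 CPM), and overlapped in WAPL (69.6 to 82.5 CPM, then 76.9 to 90.7 CPM) and TIR1 (70.9 to 76.0 CPM, then 64.2 to 74.4 CPM). Fibroblast markers (4 tested) gave 3 and 0, 0 and 3, 1 and 1, 0 and 1, and 1 and 1 in the order PDS5AB, WAPL, PDS5AB-NIPBL, WAPL-NIPBL and TIR1, with sums of 16.5 to 42.5 CPM and Dcn at 0 in 6 groups. The fibroblast sum was higher without overlap in PDS5AB (27.4 to 30.1 CPM, then 40.8 to 42.5 CPM) and, narrowly, in PDS5AB-NIPBL (19.7 to 21.1996 CPM, then 21.2029 to 25.0 CPM). It was lower in WAPL (23.9 to 24.9 CPM, then 16.5 to 19.2 CPM) and overlapped in WAPL-NIPBL and TIR1. The part of these marker changes in the results on the BMP response genes was not tested. In bulk RNA, fewer cells of a type and less RNA per cell cannot be told apart.

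The 9 genes did not move as a block. Id2 rose in all 4 degron lines, but neither combined line's Id2 effect was called different from that of TIR1. Id3 fell in all 5 lines, TIR1 with auxin alone included, and no degron line's Id3 effect was called different from that of TIR1. Id1 rose when PDS5A and PDS5B or WAPL were targeted alone and fell in both combined lines. Of these Id1 effects, only that of PDS5AB was called different from that of TIR1. Smad6 rose in the single-cofactor lines. Bmp4 fell in PDS5AB, in both combined lines and in TIR1, and none of the 3 degron lines was called different from TIR1. A gene was called when its edgeR adjusted p was under 0.05 across the 19868 genes tested. The PDS5AB effect called 6 of the 9 against 46% of all tested genes, 4 higher (against 25.8%) and 2 lower (against 20.2%). The WAPL effect called 5 against 32.8%, 4 higher (17%) and 1 lower (15.8%). PDS5AB-NIPBL treatment called 4 against 19.5%, 1 higher (11.4%) and 3 lower (8.06%). WAPL-NIPBL treatment called 5 against 8.57%, 2 higher (5.11%) and 3 lower (3.45%). Auxin in TIR1 cells called 3 against 19.9%, 1 higher (10.4%) and 2 lower (9.59%). The median log2 fold change of the 9 was 0.82 in PDS5AB, 0.33 in WAPL, 0.05 in PDS5AB-NIPBL, -0.07 in WAPL-NIPBL and -0.10 in TIR1, where the medians of all tested genes were 0.04, 0.00, 0.00, 0.01 and -0.01. Tested against a 1.5-fold minimum change in place of no change, fewer calls were left. These were Id1, Id2 and Smad6 in PDS5AB, Id3 in WAPL, Id3 and Bmp4 in PDS5AB-NIPBL, and Msx1 in WAPL-NIPBL, with 0 in TIR1.

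**Figure D1:**
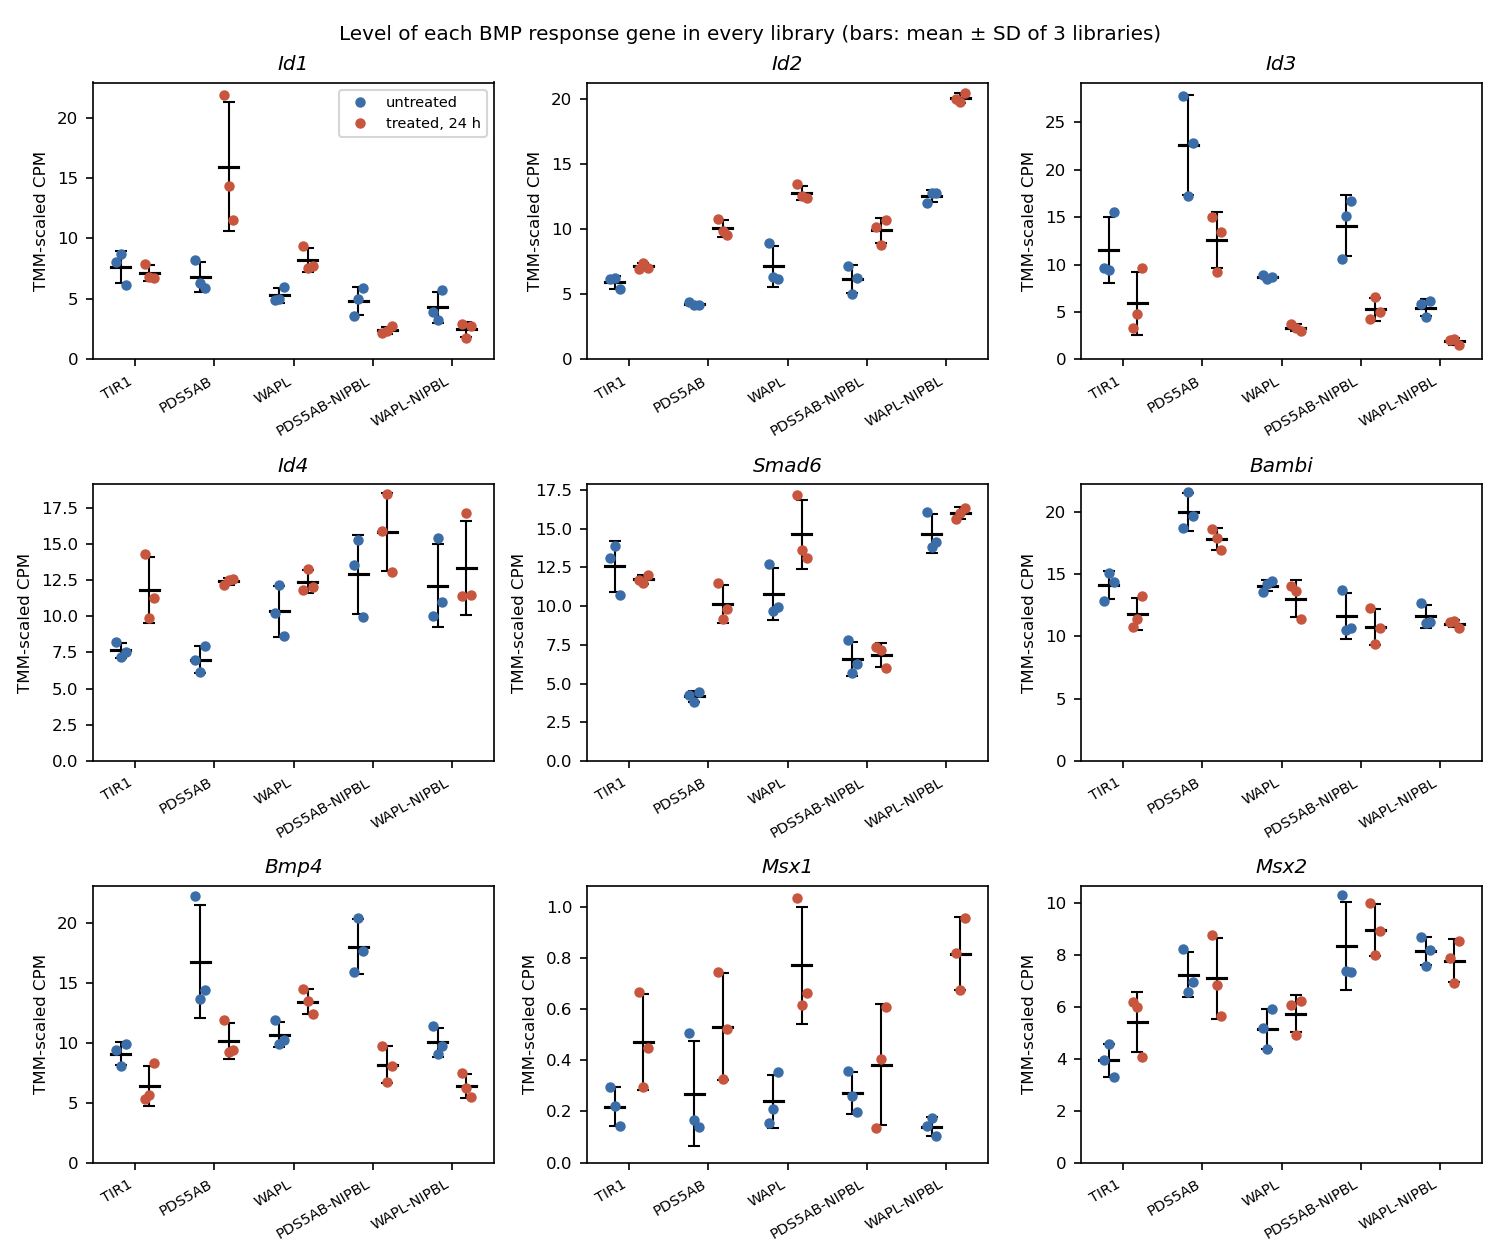
Level of each gene in every library, as TMM-scaled CPM on axes starting at 0, for the 5 lines untreated (blue) and treated (red); points are libraries and bars the mean ± SD of 3. Treated and untreated libraries are fully separated for Id1, Id2, Id3 and Bmp4 in all 4 degron lines, and Id1 is above its untreated level in PDS5AB and WAPL and below it in both combined lines.

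**Figure D2:**
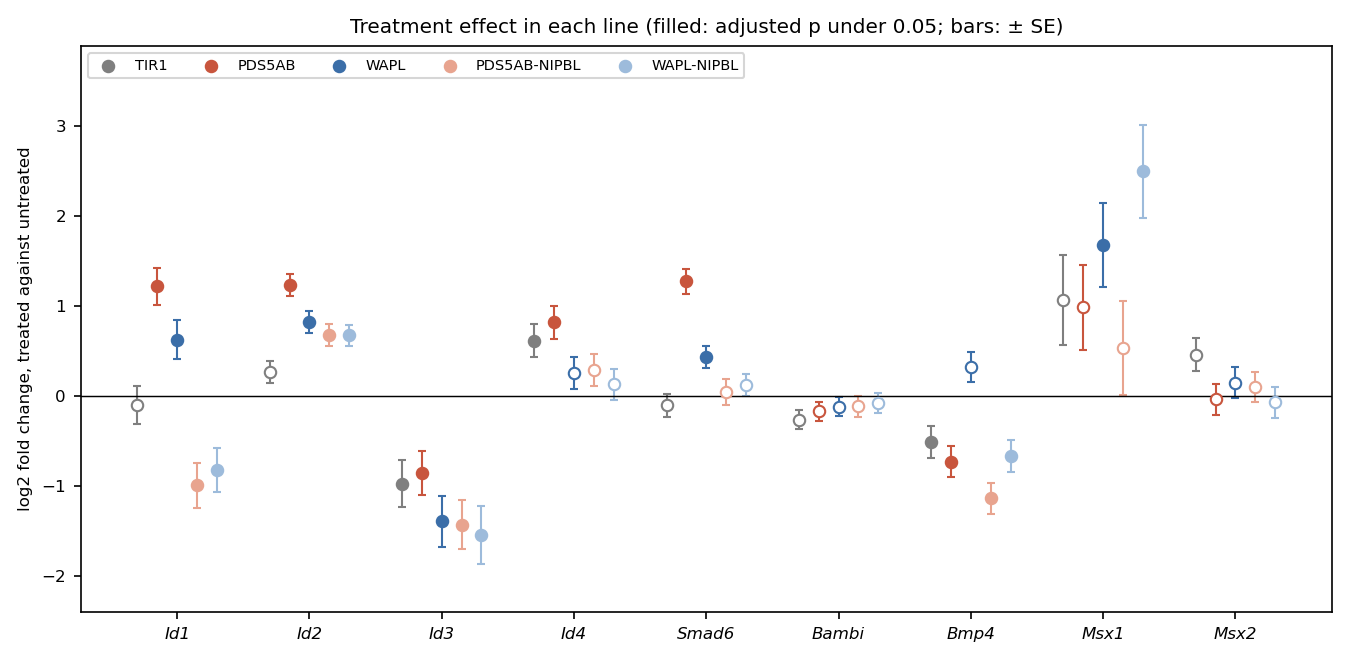
Treatment effect on each gene in each line, as the log2 fold change of treated against untreated libraries with its SE; filled points have an edgeR adjusted p under 0.05. Id2 is called higher in the 4 degron lines and Id3 lower in all 5 lines, the Id1 values run from 1.22 in PDS5AB to -0.99 in PDS5AB-NIPBL, and no Bambi or Msx2 point is filled.

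Bmp4 (ENSMUSG00000021835, GRCm38 chr14:46383520-46390669, minus strand) encodes a BMP ligand that embryonic stem cells themselves make. Its libraries stood at 22.2, 13.7 and 14.4 CPM in untreated PDS5AB cells and at 11.9, 9.18 and 9.34 CPM after auxin, with no overlap. In PDS5AB-NIPBL cells it went from 15.9, 20.4 and 17.6 CPM to 9.75, 6.72 and 8.02 CPM, and in WAPL-NIPBL cells from 11.4, 9.02 and 9.71 CPM to 7.44, 6.19 and 5.46 CPM. The treated libraries were thus below every untreated library in these 3 lines. WAPL cells alone went the other way, from 11.9, 9.87 and 10.2 CPM to 14.5, 13.4 and 12.4 CPM. The log2 fold changes were -0.72 in PDS5AB (SE 0.17, edgeR adjusted p = 0.00083), -1.13 in PDS5AB-NIPBL (SE 0.18, edgeR adjusted p = 2e-05) and -0.66 in WAPL-NIPBL (SE 0.18, edgeR adjusted p = 0.018). The WAPL value was 0.33 (SE 0.17) and was not called (edgeR adjusted p = 0.15), although a replicate block within lines and a fit on those groups alone called it, with a lowest adjusted p of 0.014. In TIR1 cells Bmp4 went from 9.37, 8.01 and 9.86 CPM to 5.29, 5.61 and 8.33 CPM, groups that overlap by 1 library, and the log2 change was -0.50 (SE 0.18, edgeR adjusted p = 0.045). The TIR1 call did not hold without untreated library 1 (edgeR adjusted p = 0.13), untreated library 3 (0.14), treated library 1 (0.22) or treated library 2 (0.19). The WAPL-NIPBL call was lost without untreated library 1 (edgeR adjusted p = 0.10), treated library 2 (0.065) or treated library 3 (0.13).

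The WAPL effect on Bmp4 lay above the TIR1 effect by 0.83 on the log2 scale (SE 0.25, edgeR adjusted p = 0.015), a call lost without the first (0.054) or the second (0.052) auxin-treated TIR1 library. The WAPL-NIPBL effect lay below the WAPL effect, with a log2 difference of -0.99 (SE 0.25, edgeR adjusted p = 0.016, or 0.052 without the third treated WAPL-NIPBL library). These lines also differ in RAD21-Halo and in the dTAG-13 given. The PDS5AB effect was 1.05 below the WAPL effect (log2 difference -1.05, SE 0.24, edgeR adjusted p = 0.0033). The differences from the TIR1 effect of the 3 lines where Bmp4 fell were not called, at -0.22 for PDS5AB (95% interval -0.72 to 0.29, edgeR adjusted p = 0.56), -0.63 for PDS5AB-NIPBL (95% interval -1.14 to -0.12, edgeR adjusted p = 0.11) and -0.16 for WAPL-NIPBL (95% interval -0.68 to 0.36, edgeR adjusted p = 0.78). The replicate block and the fit with no filter on low counts both called the PDS5AB-NIPBL difference, with a lowest adjusted p of 0.013. Before treatment Bmp4 was higher than in TIR1 in PDS5AB cells (log2 difference 0.88, edgeR adjusted p = 0.00017) and PDS5AB-NIPBL cells (0.98, edgeR adjusted p = 5.6e-05). Part of its exonic sequence is shared with the antisense gene Gm15217. Fragments were counted without regard to strand, so the level is uncertain by whatever that transcript contributes.

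The 250 bases before the start of Bmp4 and of Smad6 are shown because the treatment effect on these signalling genes differed between lines by the test and because neither window lies inside an annotated gene. Both are RefSeq sequences on GRCm38.p6, minus strand, written 5′ to 3′, at chr14:46390670-46390919 and chr9:64022060-64022309. Capitals mark GGAGCC or its reverse complement GGCTCC, a short GC-rich motif to which BMP-activated Smads are known to bind.
Bmp4: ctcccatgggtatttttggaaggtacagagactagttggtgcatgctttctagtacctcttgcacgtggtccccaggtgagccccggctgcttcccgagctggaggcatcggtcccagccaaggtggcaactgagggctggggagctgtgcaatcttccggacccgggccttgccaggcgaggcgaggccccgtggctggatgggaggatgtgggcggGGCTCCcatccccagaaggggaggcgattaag
Smad6: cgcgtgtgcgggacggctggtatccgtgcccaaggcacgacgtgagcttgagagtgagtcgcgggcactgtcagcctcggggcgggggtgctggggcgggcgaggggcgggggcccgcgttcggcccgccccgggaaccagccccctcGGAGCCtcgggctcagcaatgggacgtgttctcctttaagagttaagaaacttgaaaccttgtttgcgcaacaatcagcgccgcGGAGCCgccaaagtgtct
The Bmp4 window held 1 match and the Smad6 window 2. Sequences for 7 of the 9 genes were found, and those of Id1 and Bambi are named only. On both strands, GGAGCC occurred in 6 of the 7 windows and in 8533 of all 32851 windows of the same length. GGCGCC, its own reverse complement, occurred in 2 of 7 and 9.59%. GTCTAGAC, the palindromic Smad box, occurred in 0 of 7 and 0.167%. The motifs share no bases in the windows shown. The median GC content was 52.4% over all windows, while the Bmp4 window had 63.2% and the Smad6 window 66.8%. A match describes letters and not a bound site.

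Smad6 (ENSMUSG00000036867, GRCm38 chr9:63953076-64022059, minus strand) encodes an inhibitory Smad that blocks receptor signalling and is itself a BMP target. It rose most where PDS5A and PDS5B were targeted alone. Untreated PDS5AB libraries held 4.25, 3.80 and 4.44 CPM and treated ones 11.5, 9.15 and 9.80 CPM. The log2 fold change was 1.28 (SE 0.14, edgeR adjusted p = 1.1e-08), a 2.43-fold rise. In WAPL cells the level went from 12.7, 9.66 and 9.92 CPM to 17.2, 13.6 and 13.1 CPM, again with no overlap, and the log2 change was 0.44 (SE 0.13, edgeR adjusted p = 0.0081, or 0.067 without the first treated library). The combined lines showed no called change. PDS5AB-NIPBL cells had 7.82, 5.66 and 6.26 CPM before and 7.38, 7.17 and 5.98 CPM after treatment (log2 fold change 0.05, SE 0.14). WAPL-NIPBL cells had 16.1, 13.8 and 14.1 CPM before and 15.6, 16.02 and 16.4 CPM after (0.13, SE 0.13). TIR1 cells had 13.1, 13.9 and 10.7 CPM before and 11.7, 11.5 and 12.03 CPM after (-0.10, SE 0.13). Treated and untreated libraries overlapped in these 3 lines.

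The PDS5AB effect on Smad6 exceeded the TIR1 effect by 1.38 (SE 0.19, edgeR adjusted p = 2.9e-06) and the WAPL effect by 0.84 (SE 0.19, edgeR adjusted p = 0.0026) on the log2 scale. The PDS5AB-NIPBL effect was lower than the PDS5AB effect, with a log2 difference of -1.23 (SE 0.20, edgeR adjusted p = 0.00015). WAPL exceeded TIR1 by 0.54 (SE 0.18, edgeR adjusted p = 0.032). That difference lost its call without any of 7 libraries: untreated TIR1 libraries 1 (0.070) and 2 (0.096), treated TIR1 libraries 1 (0.056) and 2 (0.066), untreated WAPL libraries 2 (0.095) and 3 (0.082) and treated WAPL library 1 (0.12). Between WAPL-NIPBL and WAPL the difference was -0.31 (95% interval -0.68 to 0.05, edgeR adjusted p = 0.40). The rise in PDS5AB started from a low level. Untreated PDS5AB cells had 3.01-fold less Smad6 than untreated TIR1 cells (log2 difference -1.59, SE 0.14, edgeR adjusted p = 1.8e-10), and untreated PDS5AB-NIPBL cells 1.90-fold less (-0.93, SE 0.13, edgeR adjusted p = 3.2e-06). After treatment the mean of PDS5AB cells was 10.2 CPM and that of TIR1 cells 11.7 CPM. These treated groups lie on opposite sides of the gap in library numbers, and the difference between them was not tested.

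Bambi (ENSMUSG00000024232, GRCm38 chromosome 18, 3507923 to 3516404, plus strand) encodes a membrane pseudoreceptor that lacks the kinase domain and dampens BMP and TGF-beta signalling. It was called in no treatment effect, where log2 fold changes ran from -0.26 in TIR1 to -0.07 in WAPL-NIPBL, with SEs of 0.11. Treated and untreated PDS5AB libraries did not overlap, at 18.6, 17.9 and 16.9 CPM against 18.7, 21.6 and 19.7 CPM, but the difference of -0.17 (95% interval -0.38 to 0.05) was not called (edgeR adjusted p = 0.21). The group means spanned 10.8 to 19.99 CPM, the narrowest ratio of the 9 genes at 1.86. Untreated PDS5AB cells stood highest, 0.50 above untreated TIR1 on the log2 scale (SE 0.11, edgeR adjusted p = 0.00047).

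Id1 (ENSMUSG00000042745, GRCm38 chr2:152736251-152737410, plus strand) encodes a helix-loop-helix protein without a DNA-binding region that ties up E proteins, and it is the most used readout of BMP-activated Smads. It changed in opposite directions. PDS5AB cells went from 8.23, 6.31 and 5.91 CPM to 21.9, 14.3 and 11.6 CPM, and WAPL cells from 4.88, 5.01 and 5.98 CPM to 9.35, 7.54 and 7.68 CPM. PDS5AB-NIPBL cells went from 3.55, 4.96 and 5.93 CPM to 2.14, 2.37 and 2.72 CPM, and WAPL-NIPBL cells from 3.88, 3.28 and 5.69 CPM to 2.90, 1.78 and 2.73 CPM. In all 4 lines the treated libraries were clear of the untreated ones. TIR1 libraries overlapped, at 8.08, 8.72 and 6.13 CPM untreated and 7.90, 6.81 and 6.71 CPM after auxin. Log2 fold changes were 1.22 in PDS5AB (SE 0.20, edgeR adjusted p = 1.3e-05), 0.63 in WAPL (SE 0.21, edgeR adjusted p = 0.023), -0.99 in PDS5AB-NIPBL (SE 0.25, edgeR adjusted p = 0.0047), -0.81 in WAPL-NIPBL (SE 0.25, edgeR adjusted p = 0.033) and -0.10 in TIR1 (SE 0.21, edgeR adjusted p = 0.80). Of these, the WAPL call was lost without untreated library 1 (0.082), untreated library 2 (0.068) or treated library 1 (0.085), and the PDS5AB-NIPBL call without untreated library 3 (0.0503). The WAPL-NIPBL call was lost without untreated libraries 1 (0.056) or 3 (0.29), without treated libraries 2 (0.20) or 3 (0.061), and on those groups alone (0.066).

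The contrast between the single and the combined lines was the largest difference between effects among the 9 genes. PDS5AB-NIPBL lay below PDS5AB by a log2 difference of -2.21 (SE 0.32, edgeR adjusted p = 4.2e-05), and WAPL-NIPBL below WAPL by -1.44 (SE 0.33, edgeR adjusted p = 0.0062). Both stayed called in every alternative run. The PDS5AB-NIPBL effect minus the PDS5AB effect called 3 of the 9 genes against 9.46% of tested genes, 0 higher (4.97%) and 3 lower (4.48%). WAPL-NIPBL minus WAPL called 2 against 5.19%, 0 higher (3.03%) and 2 lower (2.16%). The PDS5AB effect exceeded the TIR1 effect by 1.32 (SE 0.29, edgeR adjusted p = 0.0011). The 0.73 by which WAPL exceeded TIR1 was not called (95% interval 0.11 to 1.34, edgeR adjusted p = 0.085), though it was with no filter on low counts and on those groups alone, with a lowest adjusted p of 0.013. Nor were the differences of the combined lines from TIR1, -0.89 for PDS5AB-NIPBL (95% interval -1.56 to -0.23, edgeR adjusted p = 0.080) and -0.72 for WAPL-NIPBL (95% interval -1.38 to -0.06, edgeR adjusted p = 0.19). Fits with no filter called both, and PDS5AB-NIPBL was also called on those groups alone and without its untreated library 1. Treated cells compared directly on one side of the gap in library numbers gave a larger distance. Treated PDS5AB-NIPBL cells had 2.93-fold less Id1 than auxin-treated TIR1 cells (log2 difference -1.55, SE 0.24, edgeR adjusted p = 4.8e-06), and treated WAPL-NIPBL cells 2.91-fold less (-1.54, SE 0.23, edgeR adjusted p = 4.3e-06). The untreated combined lines were also below untreated TIR1, in comparisons that cross the gap in library numbers, so that gap and line cannot be told apart. Untreated WAPL-NIPBL cells were below untreated TIR1 by -0.82 (SE 0.22, edgeR adjusted p = 0.0061, or 0.061 without untreated WAPL-NIPBL library 2), and untreated PDS5AB-NIPBL cells by -0.66 (SE 0.22, edgeR adjusted p = 0.020). The latter call was lost without untreated TIR1 library 1 (0.067) or 2 (0.092), or untreated PDS5AB-NIPBL library 1 (0.14).

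Id2 (ENSMUSG00000020644, GRCm38 chr12:25093799-25097140, minus strand), a second inhibitor of E proteins, rose in all 4 degron lines. PDS5AB cells went from 4.42, 4.17 and 4.17 CPM to 10.7, 9.83 and 9.54 CPM, and WAPL cells from 8.96, 6.35 and 6.14 CPM to 13.4, 12.5 and 12.4 CPM. PDS5AB-NIPBL cells went from 7.17, 5.01 and 6.26 CPM to 10.2, 8.79 and 10.7 CPM, and WAPL-NIPBL cells from 11.99, 12.8 and 12.8 CPM to 19.98, 19.7 and 20.4 CPM. No treated library fell within the untreated range of its line. In TIR1 cells the libraries were also separated, at 6.17, 6.21 and 5.35 CPM untreated and 6.93, 7.40 and 7.03 CPM treated, and their log2 change of 0.27 (SE 0.12) was not called (edgeR adjusted p = 0.13). Log2 fold changes were 1.24 in PDS5AB (SE 0.13, edgeR adjusted p = 3.1e-09), 0.83 in WAPL (SE 0.12, edgeR adjusted p = 2.6e-06), 0.68 in PDS5AB-NIPBL (SE 0.13, edgeR adjusted p = 0.00016) and 0.68 in WAPL-NIPBL (SE 0.11, edgeR adjusted p = 0.00015). All 4 were called in every alternative other than the 1.5-fold minimum, which left PDS5AB.

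Against the TIR1 effect, the Id2 effect was larger by 0.97 in PDS5AB (SE 0.18, edgeR adjusted p = 0.00015) and by 0.56 in WAPL (SE 0.17, edgeR adjusted p = 0.020). The WAPL difference was lost without untreated TIR1 library 1 or 2 (0.051 each), untreated WAPL library 2 (0.069) or 3 (0.070), or with no filter on low counts (0.056). For the combined lines the differences of 0.41 in PDS5AB-NIPBL (95% interval 0.05 to 0.77, edgeR adjusted p = 0.14) and 0.41 in WAPL-NIPBL (95% interval 0.06 to 0.75, edgeR adjusted p = 0.15) were not called. The PDS5AB-NIPBL effect was below the PDS5AB effect by -0.56 (SE 0.18, edgeR adjusted p = 0.044). That call was lost in a fit on those groups alone (0.087), with no filter (0.10) and in 9 of the 12 fits leaving out a library. These were the fits without untreated PDS5AB library 2 (0.092) or 3 (0.086), treated PDS5AB library 1 (0.11), 2 (0.066) or 3 (0.052), untreated PDS5AB-NIPBL library 1 (0.16) or 3 (0.078), and treated PDS5AB-NIPBL library 1 (0.068) or 2 (0.12). Untreated levels differed too. Id2 was lower in PDS5AB than in TIR1 (log2 difference -0.47, edgeR adjusted p = 0.0055) and higher in WAPL-NIPBL (1.08, edgeR adjusted p = 9.2e-08). Group means ran from 4.25 CPM in untreated PDS5AB to 20.05 CPM in treated WAPL-NIPBL cells, a ratio of 4.72.

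Id3 (ENSMUSG00000007872, GRCm38 chr4:136143497-136145755, plus strand), like Id1 a direct target of BMP-activated Smads, fell in every line, TIR1 included. PDS5AB cells went from 27.8, 17.3 and 22.8 CPM to 15.0, 9.25 and 13.5 CPM, and WAPL cells from 8.86, 8.43 and 8.66 CPM to 3.68, 3.32 and 2.96 CPM. PDS5AB-NIPBL cells went from 10.5, 15.1 and 16.7 CPM to 4.24, 6.62 and 5.01 CPM, and WAPL-NIPBL cells from 5.83, 4.44 and 6.11 CPM to 1.99, 2.17 and 1.48 CPM. These groups did not overlap. TIR1 libraries did, at 9.66, 9.47 and 15.6 CPM before and 3.28, 4.82 and 9.62 CPM after auxin, the third library being highest in both. Log2 fold changes were -0.85 in PDS5AB (SE 0.24, edgeR adjusted p = 0.0049), -1.39 in WAPL (SE 0.28, edgeR adjusted p = 0.00027), -1.42 in PDS5AB-NIPBL (SE 0.27, edgeR adjusted p = 0.00027), -1.54 in WAPL-NIPBL (SE 0.32, edgeR adjusted p = 0.0015) and -0.97 in TIR1 (SE 0.26, edgeR adjusted p = 0.0081). The TIR1 call was lost without untreated library 3 (0.087), treated library 1 (0.081) or treated library 2 (0.058).

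No degron line's Id3 effect differed from the TIR1 effect by the test. The log2 differences were 0.12 for PDS5AB (95% interval -0.61 to 0.84), -0.42 for WAPL (-1.20 to 0.36), -0.46 for PDS5AB-NIPBL (-1.22 to 0.31) and -0.57 for WAPL-NIPBL (-1.41 to 0.27). Among treated cells, WAPL-NIPBL stood below auxin-treated TIR1 by -1.66 (SE 0.31, edgeR adjusted p = 8.7e-05). WAPL stood below by -0.84 (SE 0.28, edgeR adjusted p = 0.018), a call lost without treated TIR1 library 3 (-0.30, edgeR adjusted p = 0.42) or treated WAPL library 3 (0.078). Before treatment, Id3 was higher in PDS5AB than in TIR1 by 0.96 (SE 0.25, edgeR adjusted p = 0.0029) and lower in WAPL-NIPBL by -1.09 (SE 0.27, edgeR adjusted p = 0.0028). Its group means spanned 1.88 to 22.6 CPM, a ratio of 12.03 and the widest of the 9. Across the 30 libraries, log2 CPM of Id3 and Id2 had a Pearson r of -0.84, a description over libraries that share lines and treatments.

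Id4 (ENSMUSG00000021379, GRCm38 chr13:48261228-48266026, plus strand), a family member best known from neural and germline cells, rose in PDS5AB and in TIR1 cells. PDS5AB libraries went from 6.95, 6.12 and 7.95 CPM to 12.2, 12.5 and 12.6 CPM, and TIR1 libraries from 8.19, 7.22 and 7.52 CPM to 14.3, 9.86 and 11.3 CPM, with no overlap in either. The log2 fold changes were 0.82 (SE 0.18, edgeR adjusted p = 0.00037) and 0.62 (SE 0.18, edgeR adjusted p = 0.014). The TIR1 call was lost without untreated library 2 (0.057) or treated library 1 (0.10). The effects differed by 0.20 (95% interval -0.32 to 0.72, edgeR adjusted p = 0.60). In WAPL, PDS5AB-NIPBL and WAPL-NIPBL cells the libraries overlapped, spanning 8.62 to 13.3, 9.93 to 18.5 and 9.997 to 17.1 CPM over both states. Their log2 fold changes of 0.26, 0.29 and 0.14 were not called, though the replicate block within lines called WAPL (edgeR adjusted p = 0.016) and PDS5AB-NIPBL (edgeR adjusted p = 0.0087). Untreated PDS5AB-NIPBL and WAPL-NIPBL cells were above TIR1 by 0.75 (edgeR adjusted p = 0.0019) and 0.67 (edgeR adjusted p = 0.0063, or 0.091 without untreated WAPL-NIPBL library 2). Id4 shares exonic bases with the antisense genes A330033J07Rik and Gm49291, so its unstranded counts are uncertain.

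Msx1 (ENSMUSG00000048450, GRCm38 chr5:37820485-37824583, minus strand) and Msx2 (ENSMUSG00000021469, GRCm38 chr13:53466884-53473074, minus strand) encode homeobox repressors that BMP induces in mesenchyme, neural crest and surface ectoderm. Msx1 was barely transcribed, at 3 to 33 counts per library. WAPL-NIPBL cells had 0.142, 0.176 and 0.105 CPM (3, 5 and 3 counts) before and 0.822, 0.674 and 0.958 CPM (19, 22 and 33 counts) after treatment. WAPL cells had 0.154, 0.212 and 0.354 CPM before and 1.04, 0.616 and 0.665 CPM after. Neither pair of groups overlapped, and the log2 fold changes were 2.50 (SE 0.52, edgeR adjusted p = 0.0016) and 1.68 (SE 0.47, edgeR adjusted p = 0.0057). Msx1 passed the low-count filter through the libraries where it was high, mostly treated ones, and both calls stayed with no filter. In TIR1 (1.07, SE 0.50), PDS5AB (0.99, SE 0.47) and PDS5AB-NIPBL (0.54, SE 0.52) it was not called, and no difference between effects was called for it. The PDS5AB change was called without untreated library 1 or treated library 2, with a lowest adjusted p of 0.0088.

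Msx2 stood between 3.30 and 10.3 CPM and was called in no treatment effect, with log2 fold changes of -0.07 to 0.15 in the degron lines (SEs of 0.17 to 0.18) and 0.47 in TIR1 (SE 0.18, edgeR adjusted p = 0.069). The TIR1 value was called with no filter on low counts and without treated library 3. It differed between lines before treatment. PDS5AB cells had 8.23, 6.55 and 6.93 CPM, PDS5AB-NIPBL cells 10.3, 7.36 and 7.34 CPM and WAPL-NIPBL cells 8.67, 7.58 and 8.17 CPM, all above the 3.93, 4.58 and 3.30 CPM of TIR1 cells. The log2 differences were 0.88 (edgeR adjusted p = 0.00026), 1.09 (edgeR adjusted p = 2.2e-05) and 1.05 (edgeR adjusted p = 5.7e-05). Among treated cells the difference from TIR1 was called in PDS5AB-NIPBL (0.73, edgeR adjusted p = 0.0011) and in WAPL-NIPBL (0.52, edgeR adjusted p = 0.018). The latter was lost without treated TIR1 library 3 (0.16) or treated WAPL-NIPBL library 3 (0.090).

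Over untreated lines, 6 of the 9 genes were called in PDS5AB against TIR1, where 32% of tested genes were, with 4 higher (15.5%) and 2 lower (16.5%). PDS5AB-NIPBL had 5 against 34.3%, with 3 higher (16.5%) and 2 lower (17.8%), and WAPL-NIPBL 5 against 28%, with 3 higher (13.4%) and 2 lower (14.6%). In untreated WAPL cells 0 were called by edgeR against 14% of tested genes (6.62% higher, 7.39% lower), with 4 at an unadjusted p under 0.05 and 0 by DESeq2. The difference between the PDS5AB and TIR1 effects called 3 against 26.3% of tested genes, all higher (13.9%) and 0 lower (12.4%), namely Id1, Id2 and Smad6. That between WAPL and TIR1 called 3 against 20.7%, all higher (9.86%) and 0 lower (10.9%), namely Id2, Smad6 and Bmp4. The PDS5AB-NIPBL and WAPL-NIPBL effects minus the TIR1 effect called 0 each by edgeR against 10.1% (5.28% higher, 4.81% lower) and 7.04% (3.1% higher, 3.94% lower) of tested genes, with 3 at an unadjusted p under 0.05 in each and 0 by DESeq2. PDS5AB minus WAPL called 2 against 12.5%, Smad6 higher (7.38%) and Bmp4 lower (5.11%). Treated WAPL, PDS5AB-NIPBL and WAPL-NIPBL cells against treated TIR1 called 4 (39.7%), 4 (37.7%) and 5 (31%). Higher and lower calls were 3 (19.9%) and 1 (19.8%) in WAPL, 2 (19.4%) and 2 (18.3%) in PDS5AB-NIPBL, and 3 (15.5%) and 2 (15.4%) in WAPL-NIPBL. Smad6 was among them, at 0.32 in WAPL (SE 0.12, edgeR adjusted p = 0.043), -0.78 in PDS5AB-NIPBL (SE 0.13, edgeR adjusted p = 2.4e-05) and 0.45 in WAPL-NIPBL (SE 0.12, edgeR adjusted p = 0.0061). The WAPL value was lost without any of treated WAPL library 1 (0.26) or treated TIR1 libraries 1 (0.083), 2 (0.10) or 3 (0.067), and with no filter (0.068). Id2 was called in each of them, at 0.84 (edgeR adjusted p = 9.3e-07), 0.48 (edgeR adjusted p = 0.0022) and 1.49 (edgeR adjusted p = 2e-11), and Bmp4 in WAPL at 1.06 (edgeR adjusted p = 1.2e-05). All comparisons with TIR1 share the same TIR1 libraries.

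Compared per kilobase of exon in untreated TIR1 cells, the levels were 6.59 RPKM ± 1.16 (SD, n = 3) for Id1, 6.46 ± 1.93 for Id3, 4.04 ± 0.42 for Bmp4, 3.92 ± 0.51 for Smad6, 2.78 ± 0.22 for Bambi, 2.42 ± 0.20 for Id2, 1.99 ± 0.13 for Id4, 1.20 ± 0.20 for Msx2 and 0.071 ± 0.025 for Msx1. RPKM is the TMM-scaled CPM divided by exon length in kilobases. Id1 and Id3, and likewise Bmp4 and Smad6, were closer to each other than their spread. When the 10 groups were ordered by mean CPM, the libraries of most neighbouring groups overlapped, in 9 of 9 neighbouring pairs for Msx1 and Msx2, 8 for Id4 and Bmp4, 7 for Id1, Smad6 and Bambi, 6 for Id2 and 5 for Id3. These orders mix groups from both sides of the gap in library numbers, so gap and group cannot be told apart there. The Id1 order had 2 clear steps. Treated PDS5AB cells, at a mean of 15.9 CPM, were above all others, and treated WAPL-NIPBL and PDS5AB-NIPBL cells, at 2.47 and 2.41 CPM, were below all others. In Id2, treated WAPL-NIPBL cells stood clear at the top, and untreated PDS5AB cells (4.25 CPM) at the bottom. In Id3, untreated PDS5AB cells (22.6 CPM) were highest, and treated WAPL-NIPBL cells (1.88 CPM) were below all others. Treated WAPL cells (3.32 CPM) came next and overlapped treated TIR1 cells, whose lowest library was at 3.28 CPM.

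The other genes of the pathway are given by list, beside the shares of all tested genes that were called. These shares were 25.8% higher and 20.2% lower in PDS5AB, 17% and 15.8% in WAPL, 11.4% and 8.06% in PDS5AB-NIPBL, 5.11% and 3.45% in WAPL-NIPBL, and 10.4% and 9.59% in TIR1. The counts describe the lists and were not tested against these shares. Of 9 tested BMP ligand genes, Bmp4 included, 6 rose and 1 fell in PDS5AB, with a median log2 fold change of 0.84, and 4 rose and 2 fell in WAPL, with a median of 0.96. The medians of all tested genes were 0.04 and 0.00. Bmp7 went from a mean of 13.2 CPM to 29.9 CPM in PDS5AB (log2 fold change 1.18, SE 0.09, edgeR adjusted p = 1.7e-11) and from 18.1 to 35.8 CPM in WAPL (0.98, SE 0.09, edgeR adjusted p = 7.2e-10). It rose in TIR1 too (0.85, edgeR adjusted p = 1.1e-07). Bmp8b rose by 2.03 in PDS5AB (SE 0.17, edgeR adjusted p = 8.1e-11) and by 1.01 in WAPL (SE 0.20, edgeR adjusted p = 0.00018), and Bmp8a by 0.71 and 0.96. In TIR1 neither was called, at -0.47 for Bmp8b and -0.24 for Bmp8a. Ligand genes gave 3 higher and 1 lower in PDS5AB-NIPBL, and 1 and 1 in WAPL-NIPBL and in TIR1. Against the TIR1 effect, 2 ligand genes were higher and 0 lower in PDS5AB, 3 and 1 in WAPL, 0 and 0 in PDS5AB-NIPBL, and 1 and 1 in WAPL-NIPBL. Of all tested genes, 26.3%, 20.7%, 10.1% and 7.04% were called in these differences, in the same order. Of 12 receptor and co-receptor genes, 7 rose and 0 fell in PDS5AB (median 0.50), 6 and 0 in both WAPL (0.40) and PDS5AB-NIPBL (0.26), 2 and 0 in WAPL-NIPBL and 4 and 0 in TIR1 (0.32). Their differences from the TIR1 effect gave 1 higher and 1 lower in PDS5AB (median 0.15) and 0 higher and 1 lower in WAPL (-0.08), PDS5AB-NIPBL (-0.04) and WAPL-NIPBL (-0.15). Acvrl1, a type I receptor, rose by 1.47 in PDS5AB (edgeR adjusted p = 3.9e-09) and 1.03 in WAPL (edgeR adjusted p = 8.6e-06). The type II receptor gene Bmpr2 rose by 0.71 in PDS5AB (edgeR adjusted p = 3.1e-05). In TIR1 they were not called, at 0.46 for Acvrl1 and 0.32 for Bmpr2. Tgfbr3, a co-receptor, rose by 0.71 and 0.77, and by 1.44 in TIR1 (edgeR adjusted p = 2.3e-09).

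Against the same shares, with 46% of all tested genes called in PDS5AB and 32.8% in WAPL, the Smads and regulators gave the following counts. Of 6 Smad genes, Smad6 included, 1 rose in PDS5AB, 3 rose and 1 fell in WAPL, 1 fell in PDS5AB-NIPBL and 0 were called in the other lines. In WAPL cells Smad9 fell by 1.51 on the log2 scale (log2 fold change -1.51, SE 0.20, edgeR adjusted p = 8.1e-07), while Smad1 and Smad5, the main signal carriers, rose by 0.38 and 0.31. In TIR1 none of the 3 was called, with values of 0.11 for Smad9, -0.15 for Smad1 and 0.17 for Smad5. Against the TIR1 effect, 1 Smad gene was higher in PDS5AB, 2 were higher and 1 lower in WAPL, and 0 were called in the combined lines. Of all tested genes, 13.9% were called higher and 12.4% lower in this difference for PDS5AB, and 9.86% and 10.9% for WAPL. For PDS5AB-NIPBL these shares were 5.28% and 4.81%, and for WAPL-NIPBL 3.1% and 3.94%. They apply to every list's differences from TIR1 below. Extracellular antagonists and binders (11 tested) gave 6 higher and 2 lower in PDS5AB (median 0.42), 4 and 2 in WAPL (0.28), 2 and 3 in PDS5AB-NIPBL, 3 and 0 in WAPL-NIPBL, and 0 and 2 in TIR1. Follistatin (Fst) fell from 14.2 to 4.84 CPM in PDS5AB (log2 fold change -1.55, SE 0.16, edgeR adjusted p = 5.1e-09) and from 14.3 to 3.65 CPM in WAPL (-1.95, SE 0.17, edgeR adjusted p = 1.8e-10). Bmp1, a protease that cleaves chordin, rose by 1.41 and 0.70. Their TIR1 values, 0.43 for Fst and 0.07 for Bmp1, were not called. Differences from TIR1 among the antagonists gave 4 higher and 2 lower in PDS5AB, 2 and 2 in WAPL, 2 and 1 in PDS5AB-NIPBL, and 1 and 1 in WAPL-NIPBL. Intracellular regulators (12 tested) gave 6 higher and 1 lower in PDS5AB, 5 and 0 in WAPL, 0 and 1 in PDS5AB-NIPBL, 0 and 0 in WAPL-NIPBL and 2 and 1 in TIR1. Among these, Zfyve16 (0.56, edgeR adjusted p = 0.0025) and Tob1 (0.47, edgeR adjusted p = 2.3e-05) rose in PDS5AB. Fkbp1a, whose product guards type I receptors against firing without ligand, fell there (-0.48, edgeR adjusted p = 9.3e-06), the list's only gene called lower. In WAPL, Zfp423 (0.94, edgeR adjusted p = 0.0025), Zfyve16 (0.72, edgeR adjusted p = 0.00056) and Skil (0.50, edgeR adjusted p = 0.032) rose. In TIR1 Fkbp1a was not called (-0.16), and Zfp423 fell (-1.34, edgeR adjusted p = 0.0009). The intracellular regulators differed from TIR1 in 3 genes upward and 1 downward in PDS5AB, 1 and 1 in WAPL, and 0 and 1 in each combined line.

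Other BMP target genes (18 tested, Smad9 among them) gave 7 higher and 2 lower in PDS5AB (median 0.31), 5 and 7 in WAPL (-0.07), 1 and 6 in PDS5AB-NIPBL (-0.10), 0 and 3 in WAPL-NIPBL and 3 and 1 in TIR1. The 9 of 18 called in PDS5AB lie close to the 46% of all tested genes called there, and in WAPL 12 of 18 were called against 32.8%. Dlx3, a homeobox gene of surface ectoderm and placenta, went from 3.41 to 13.1 CPM in PDS5AB (log2 fold change 1.95, SE 0.22, edgeR adjusted p = 2.3e-08). Prdm1 rose there by 0.96 (edgeR adjusted p = 6.3e-07). Gata2 rose in PDS5AB by 0.76 (edgeR adjusted p = 0.012) and fell in WAPL (-1.66, edgeR adjusted p = 4.4e-06), where Tfap2c, also on the trophoblast marker list, fell from 81.7 to 18.4 CPM (-2.15, SE 0.08, edgeR adjusted p = 3.3e-18). In TIR1 Dlx3 (0.75), Gata2 (0.89) and Tfap2c (0.64) rose, and Prdm1 was not called (0.07). Set against TIR1, the target genes gave 4 higher and 2 lower in PDS5AB, 2 and 6 in WAPL, 1 and 2 in PDS5AB-NIPBL, and 1 and 3 in WAPL-NIPBL. Shares of all tested genes called in these differences were 26.3%, 20.7%, 10.1% and 7.04%, in the same order. E proteins and other helix-loop-helix partners of the Id proteins (7 tested) gave 3 higher and 0 lower in both PDS5AB and PDS5AB-NIPBL, 5 and 0 in WAPL, 1 and 0 in WAPL-NIPBL, and 2 and 2 in TIR1. Tcf12 rose by 0.85 in PDS5AB and 0.47 in WAPL, and Tcf4 by 0.26 and 0.53, and both rose in TIR1 by 0.46 and 0.58. Beside the same shares, the differences of these partners from TIR1 gave 3 higher and 0 lower in PDS5AB, 2 and 0 in WAPL and PDS5AB-NIPBL, and 0 and 1 in WAPL-NIPBL.

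**Figure D3:**
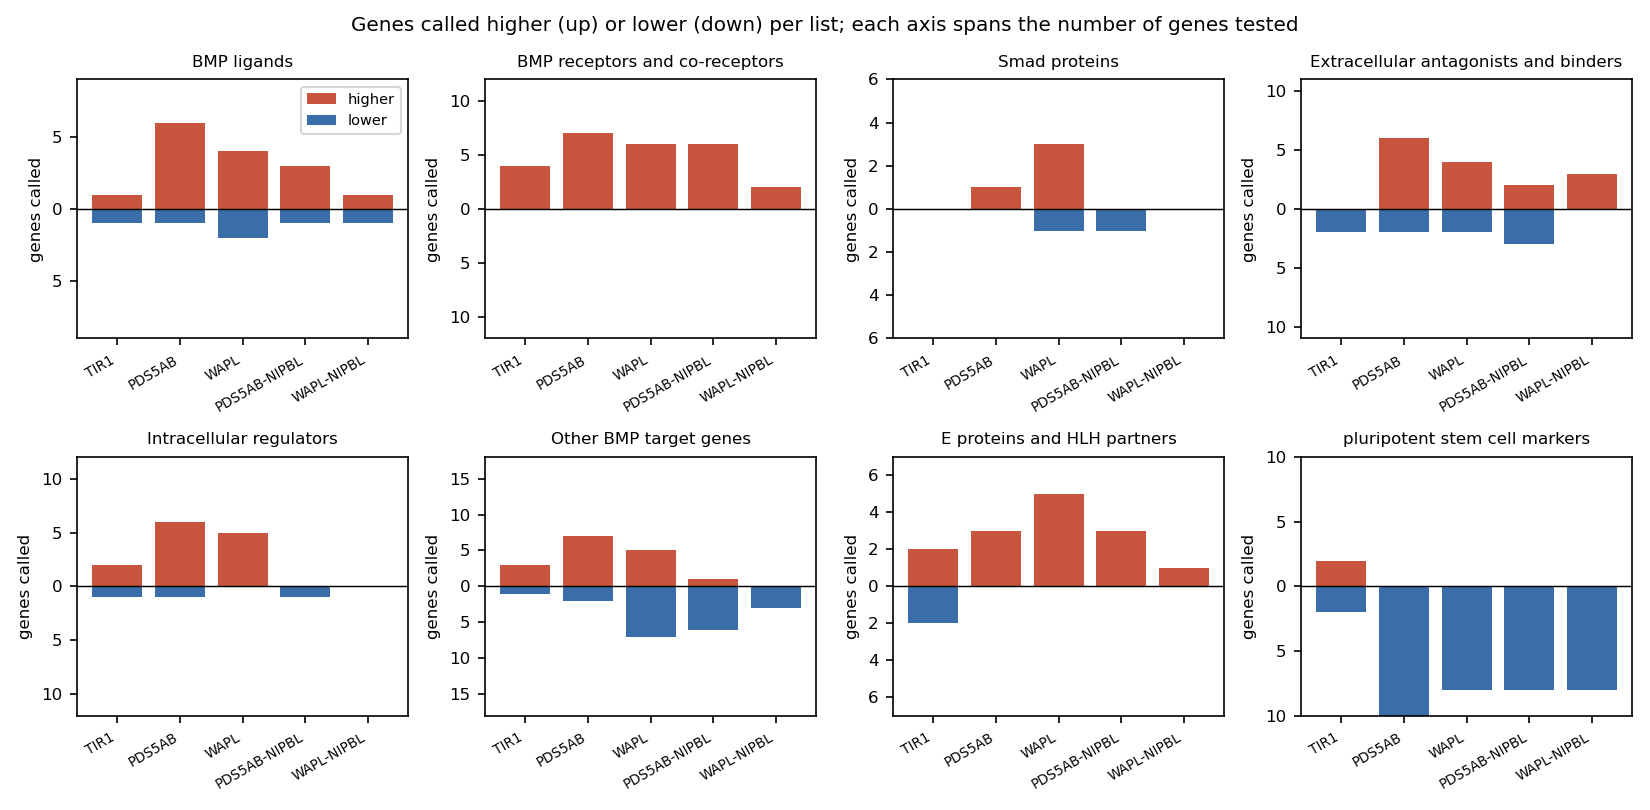
Number of genes called higher (red, upward) or lower (blue, downward) by edgeR in each treatment effect, for 7 lists of BMP pathway genes and the 10 pluripotency markers; each vertical axis spans the number of genes tested. Receptor genes were called in the upward direction only in the 5 effects shown, and pluripotency markers were called lower in 8 to 10 of 10 in the degron lines and in 2 of 10 in TIR1.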

How the data were processed

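Polyadenylated RNA was sequenced from stranded libraries, per the labels. The authors deposited 1 table of raw counts of fragments per gene with each gene's exon length, made with featureCounts 2.0.1 in paired-end mode on the GENCODE vM23 annotation of GRCm38, with no strand and no multi-mapping option, per the file headers. The submitters' processing notes also name cutadapt, STAR 2.7.7a, deepTools and GRCm38.p6. Counting without strand lets antisense genes add to a gene. Identifiers of 55154 genes (99.5%) were matched to a symbol.

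Counts of all 30 libraries (19632704 to 45539021 fragments) were fitted in edgeR 4.0.16 (R 4.3.3) with a mean per group, TMM factors of 0.950 to 1.13, 20 residual degrees of freedom and filterByExpr at a minimum count of 10, leaving 19868 genes. Quasi-likelihood F-tests were adjusted by Benjamini-Hochberg over these genes. SEs were derived from F. The 19 comparisons were 5 treatment effects, 4 untreated levels against TIR1, 7 differences between effects and 3 comparisons of treated cells. Alternatives were RLE factors, no filter, DESeq2 1.42.0, the compared groups alone, a 1.5-fold minimum, replicate blocks and leaving out each library. In the 4 degron lines same-numbered libraries deviated together (r of 0.109 to 0.333 for 12 of 12 pairs), so the numbers pair them. The pairing comes from the labels' replicate numbers. The main fit, with a mean per group, leaves this pairing out, and only the replicate blocks use it. All p-values not credited to a replicate block thus come from unpaired tests.

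All 9 genes are named. Of each pathway list, the rule takes the 3 genes with the largest called change in the PDS5AB and in the WAPL effect at a mean of at least 50 counts. Not all genes that the rule takes are described. Values in TIR1 were added beside those named, except Zfyve16, Tob1 and Skil. For likeness of pattern the rule takes the most similar genes by Pearson r. The genes, lists and rules were chosen with earlier results of these data known.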

Additional observations from a re-analysis of the deposited data

Results flagged for a closer look

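Some treatment effects differed between lines by a test of the difference itself, a contrast of effects in edgeR's quasi-likelihood model with Benjamini-Hochberg adjustment over 19868 genes. For Id1, the PDS5AB effect lay above the TIR1 effect by a log2 difference of 1.32, the PDS5AB-NIPBL effect below the PDS5AB effect by -2.21, and the WAPL-NIPBL effect below the WAPL effect by -1.44. For Id2, PDS5AB exceeded TIR1 by 0.97 and WAPL exceeded TIR1 by 0.56, and PDS5AB-NIPBL lay below PDS5AB by -0.56. For Smad6, PDS5AB exceeded TIR1 by 1.38 and WAPL by 0.84, WAPL exceeded TIR1 by 0.54, and PDS5AB-NIPBL lay below PDS5AB by -1.23. For Bmp4, WAPL exceeded TIR1 by 0.83, WAPL-NIPBL lay below WAPL by -0.99, and PDS5AB lay below WAPL by -1.05. These differences were not equally firm. Of 17 alternatives each, the call held in 6 for Id2 in PDS5AB-NIPBL against PDS5AB, in 10 for Smad6, 12 for Id2 and 15 for Bmp4 in WAPL against TIR1, and in 16 for Bmp4 in WAPL-NIPBL against WAPL, and the other 8 differences were called in all 17. Each contrast with TIR1 uses an auxin effect that crosses the gap in library numbers, and the 2 cannot be told apart. Contrasts between a combined and a single-cofactor line also differ by cell line and by dTAG-13, which was given to no line without NIPBL-FKBP.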

How the results depend on the processing

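Of 65 called results on single genes, 38 were called under every alternative, 46 under all but the 1.5-fold minimum, and 0 changed sign. Against the 1.5-fold minimum the number of the 9 genes called was 0 in TIR1 (1.18% of all tested genes called), 3 in PDS5AB (11.2%), 2 in PDS5AB-NIPBL (2.1%) and 1 each in WAPL (6.24%) and WAPL-NIPBL (0.523%). With the replicate block by line, TIR1 had 6 called, Id2, Bambi and Msx2 being added, while the share of all genes went from 19.9% to 35.6%, but its same-numbered libraries did not deviate together (r of -0.010 to 0.057), and 13 of all 15 pairs were best matched by number. The replicate block by number gave 1 call, Bmp4, for PDS5AB-NIPBL minus TIR1 (14.3% of all genes) and left the other counts within 1.5 times. It also called Msx2 in TIR1, Bambi in untreated PDS5AB-NIPBL against TIR1 and Id4 in treated PDS5AB-NIPBL against treated TIR1. With no filter on low counts, untreated WAPL against TIR1 had 3 called (6.84% of all genes), PDS5AB-NIPBL minus TIR1 2 (5.4%), and WAPL-NIPBL minus TIR1 1 (4.15%). On the compared groups alone these were 2 for WAPL against TIR1 (14.6%) and 1 for PDS5AB-NIPBL minus TIR1 (12.4%). Leaving out 1 library gave 0 to 4 calls in TIR1 (0 without treated library 1), 3 to 5 in WAPL, 3 to 5 in WAPL-NIPBL, 3 to 6 in untreated WAPL-NIPBL against TIR1, 1 to 3 in WAPL minus TIR1, 0 to 1 in PDS5AB-NIPBL minus TIR1, 1 to 2 in WAPL-NIPBL minus WAPL and 2 to 4 in treated WAPL against treated TIR1. The shares of all genes called in these fits were not taken, so the counts cannot be set against them. RLE factors and DESeq2 left every count within 1.5 times. DESeq2 gave no adjusted p for Msx1 in WAPL-NIPBL. Apart from the 1.5-fold minimum, which asks a stricter question, and fits with fewer libraries, the cause of these changes was not tested. Depth limits Msx1, at 3 to 33 counts per library.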

Other observations

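Among the genes starting within 250 kb of one of the 9 genes, 41 were tested. In the PDS5AB effect 6 of these neighbours were higher and 7 lower (31.7% called, against 46% of all tested genes), in WAPL 3 and 4 (17.1% against 32.8%), in PDS5AB-NIPBL 3 and 3 (14.6% against 19.5%) and in WAPL-NIPBL 0 and 2 (4.88% against 8.57%). In TIR1 3 were higher and 6 lower, and these 9 of 41 are close to the 19.9% of all tested genes called there. Around Smad6, which rose in PDS5AB and WAPL, 9 neighbours were tested, and 0 were higher and 2 lower in each of those effects. Around Id3, which fell in all lines, 12 were tested, with 3 higher and 4 lower in PDS5AB, 1 and 1 in WAPL, 2 and 1 in PDS5AB-NIPBL, 0 and 1 in WAPL-NIPBL, and 1 and 3 in TIR1. The tested neighbour nearest to Id3, E2f2, whose start lies 28 kb away, was called lower by edgeR in all 5 effects, with log2 fold changes of -1.16 for WAPL, -0.79 for PDS5AB, -0.76 for PDS5AB-NIPBL, -0.68 for WAPL-NIPBL and -0.67 for TIR1. It was named after its values were seen.

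The genes whose log2 CPM over the 30 libraries was most like that of each of the 9 were drawn from 11907 candidates, and their r is a description over libraries that share lines, treatments and depth. They were Itga6 for Id1 (r 0.87), Pgpep1 for Id2 (0.93), Phyhipl for Id3 (0.91), Ip6k1 for Id4 (0.90), Rasl10a for Smad6 (0.94), Polr1d for Bambi (0.90), Mtcl1 for Bmp4 (0.90), Cyp1b1 for Msx1 (0.75) and Fstl1 for Msx2 (0.82). Among the 9 genes themselves, Id2 and Smad6 had an r of 0.71 and Id1 and Smad6 of 0.00.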
